A study of Mus musculus with 12 samples.

Results

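Cadherins are surface proteins that hold neighbouring cells together, and catenins are proteins inside the cell that bind cadherin tails or link them to actin. The genes described here were 8 of these, the cadherins Cdh1, Cdh2, Cdh3, Cdh11 and Cdh13 and the catenins Ctnna1, Ctnnd1 and Jup, out of 19429 genes listed in the series. They were selected on their names with results of both comparisons known, so their differences between the groups are a description. Whether a gene passed the threshold of the fit over all genes is stated to describe it, as is its standard error, and is not independent evidence for these 8. All 8 were listed in both comparisons, and all 8 passed the filter on low values in each. The cells were taken from white adipose tissue as its stromal vascular fraction, the mixture left once fat cells are removed, which holds the progenitors of fat cells. They came from 6-week-old C57BL/6 mice and were grown as primary culture to confluency. TKO cells lacked both alleles of each miR-26 gene (miR-26b, miR-26a-2 and miR-26a-1), and WT cells were wild type. Dox cells carried M2rtTA and eGFP.miR-26a and were given doxycycline at 1 mg/ml for 4 days. CTL cells carried the same transgenes without doxycycline, so an effect of the drug and an effect of the extra miR-26a cannot be told apart. Each group had 3 libraries of messenger RNA, and the labels do not say whether these were separate animals or separate cultures, so the spread between them may be technical.

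A classical cadherin binds the same cadherin on the next cell with its outer part. Its inner tail binds beta-catenin (Ctnnb1) or plakoglobin (Jup) and, at another place, p120-catenin (Ctnnd1), which keeps the cadherin at the surface. Alpha-catenin (Ctnna1) then links beta-catenin to actin. Mesenchymal cells such as fibroblasts and preadipocytes are known for N-cadherin (Cdh2) and cadherin-11 (Cdh11), and epithelial cells for E-cadherin (Cdh1) and P-cadherin (Cdh3). T-cadherin (Cdh13) has no inner tail, is held by a lipid anchor and binds the fat-cell hormone adiponectin.

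Because the study removed or added miR-26, the 3' untranslated regions (3' UTRs) of the 8 genes were searched on the transcript strand for matches to its seed, bases 2 to 8, which is the part of a microRNA that pairs with its targets. The mature sequences from RefSeq (GRCm38.p6) are shown with the seed in capitals, because both microRNAs share it and the search used it.
mmu-miR-26a-5p: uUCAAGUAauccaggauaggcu
mmu-miR-26b-5p: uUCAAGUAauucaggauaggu
The motifs searched were TACTTGA followed by A (8mer), TACTTGA without it (7mer-m8) and ACTTGAA not preceded by T (7mer-A1). Of the 8 genes, 0 held an 8mer or 7mer-m8 match, which 11.6% of the tested genes with a 3' UTR held. A 7mer-A1 match stood in 2 of the 8, Cdh2 and Cdh11, while a match of any of the 3 kinds stood in 21.8% of tested genes. The Cdh11 match lies in the 3' UTR part of exon 13, at chr8:102633857-102633863 on the minus strand of GRCm38, and is printed with its flanks, the match in capitals, as a stretch of a described gene that could pair with the seed shown above.
Cdh11: tgcgtttttaaACTTGAAatatataatat
Such a match is a string of letters and not a shown target site.

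The values are the authors' signal, which is the read count of a gene scaled to a common library size. Signal is not divided by transcript length unless it is given per kilobase (kb). Depth ran from 71455171 to 83461531 reads in TKO and from 54978109 to 61307152 reads in WT. Every TKO library was thus deeper than every WT library, so depth and genotype cannot be told apart in that comparison. In the Dox and CTL libraries depth ran from 19301969 to 25785439 reads. The 2 pairs of groups were normalized apart, so levels are compared within a pair. Mature miR-26 itself was not measured, but Fbxl19, the target named in the series title, had 30.0, 34.1 and 33.2 in TKO against 16.9, 19.2 and 22.1 in WT, and 20.6, 22.2 and 19.6 in Dox against 27.2, 26.4 and 27.0 in CTL. All 10 mesenchymal progenitor markers were listed, with a summed signal of 39477 to 39734 in TKO, 31415 to 32511 in WT, 42590 to 59073 in Dox and 40343 to 56100 in CTL. Collagens make up most of that sum, and single markers differed in direction: in TKO the collagen Col3a1 rose (13850, 12848 and 12141 in TKO against 7651, 7435 and 7302 in WT, limma adjusted p = 0.0031), while Thy1 fell (525, 391.97 and 358 against 788, 789 and 704, adjusted p = 0.0043), as did Pdgfrb (854, 776 and 1036 against 1251, 1233 and 1181, adjusted p = 0.017). For markers of other cells the sum of each list was lower. Single markers were not all lower. The mural marker Acta2 had 2854, 1919 and 2342 in TKO and the adipocyte marker Lpl 921, 1678 and 854, both above Thy1. The summed signal of 10 macrophage markers was 58.9, 298.5 and 53.2 in TKO against 49.3, 39.1 and 66.7 in WT. For 10 epithelial markers it was 11.9, 27.4 and 119.2 in TKO against 54.9, 61.8 and 18.4 in WT.

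In TKO cells 5 of the 8 genes were lower than in WT with no overlap between the groups, and all 5 were past the threshold of an adjusted p of 0.05 in limma, a test fitted over all 12649 genes. The largest difference was in N-cadherin, and P-cadherin, cadherin-11, p120-catenin and alpha-catenin followed. E-cadherin, T-cadherin and plakoglobin overlapped between the groups and did not pass. Over all genes tested 45.8% passed, 22.7% lower and 23.2% higher in TKO, and the groups did not overlap for 58.8%, so a call is common in this comparison. Scaling the reads to library size alone moved the median log2 fold change of all genes to 0.11 and gave 3831 genes higher and 1907 lower, where the authors' scaling gave 2930 higher and 2866 lower. The median log2 fold change of the 8 genes was -0.56, and that of all genes tested was -0.00085.

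**Figure D1:**
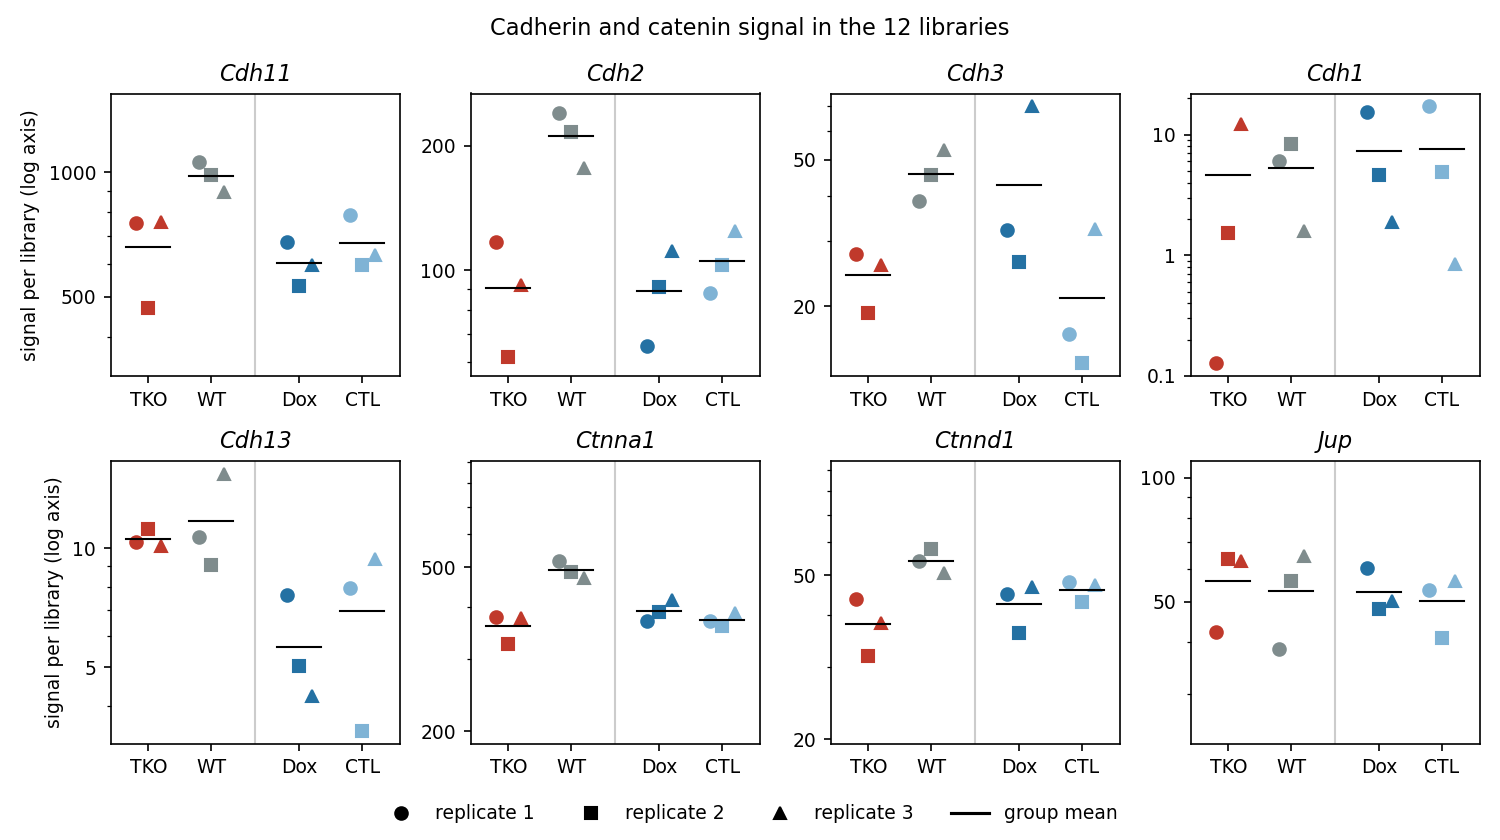
Signal of the 8 genes in each of the 12 libraries, on log axes; symbols mark replicates 1 to 3 and bars the group means. For Cdh11, Cdh2, Cdh3, Ctnna1 and Ctnnd1 every TKO library lies below every WT library, while no gene separates Dox from CTL; the vertical line divides pairs of groups normalized apart.

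Cadherin-11 (Cdh11, chromosome 8, 102632095 to 102785642, minus strand, GRCm38), the main classical cadherin of fibroblast-like cells, had the highest mean level per kb of the 8 genes in every group. Its signal was 755.2, 470.7 and 757.1 in TKO libraries 1 to 3, against 1059, 987 and 898 in WT. All TKO libraries lay below all WT libraries, and TKO 2 lay well below the other TKO libraries. The log2 fold change was -0.60 ± 0.19 (SE, n = 3 each), or 0.66-fold. Cdh11 stood nearest to the threshold: it no longer passed with no filter on low values, with library-size scaling (-0.47), with the trend on transcript length and GC content removed (-0.40), or without any one of the WT libraries (-0.54, -0.59 and -0.66 without WT 1, 2 and 3). Without TKO 2, the library with the most macrophage signal, its log2 fold change was -0.37, still past the threshold. The part of macrophages in this difference was not tested. In Dox cells Cdh11 had 679.5, 530.7 and 598.1 against 790.5, 598.4 and 631.5 in CTL, a log2 fold change of -0.16 ± 0.14 that did not pass. Dox was the lower of each same-numbered pair, by 0.22, 0.17 and 0.078 on the log2 scale.

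P-cadherin (Cdh3, chromosome 8, 106510891 to 106557297, plus strand), known from basal epithelial cells, had the largest difference of the 8 genes between Dox and CTL. In TKO it had 27.7, 19.1 and 25.8, against 38.7, 45.6 and 53.1 in WT. The TKO libraries all lay below the WT libraries, with a log2 fold change of -0.90 ± 0.17, or 0.54-fold, past the threshold. In Dox it had 32.2, 26.4 and 70.0, against 16.8, 13.97 and 32.4 in CTL. The groups overlapped, with the libraries numbered 3 the highest of each, but within each number Dox was above CTL by 1.91-, 1.89- and 2.16-fold. The mean log2 fold change was 0.95. Its SE was 0.42 between unpaired libraries and 0.089 with the replicate number as a block.

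In Dox against CTL 0 of 12634 genes (0%) passed in limma without the block, 748 had an unadjusted p under 0.05, and edgeR also called 0 and DESeq2 99. None of the 8 genes passed, and the groups overlapped for all 8, while they did not overlap for 12.2% of all genes. Same-numbered Dox and CTL libraries deviated together, and with the number as a block 265 genes passed (2.10%), 71 of them higher in Dox (0.562%). Cdh3 was then 1 of the 8 past the threshold, higher in Dox, and the other 7 did not pass. Cdh3 also passed when each same-numbered pair was left out in turn, with log2 fold changes of 0.98, 0.99 and 0.88 without pair 1, 2 and 3. Without pair 2, Cdh2 also passed, lower in Dox at -0.29. The median log2 fold change of the 8 genes was -0.025, and that of all genes was 0.011.

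**Figure D2:**
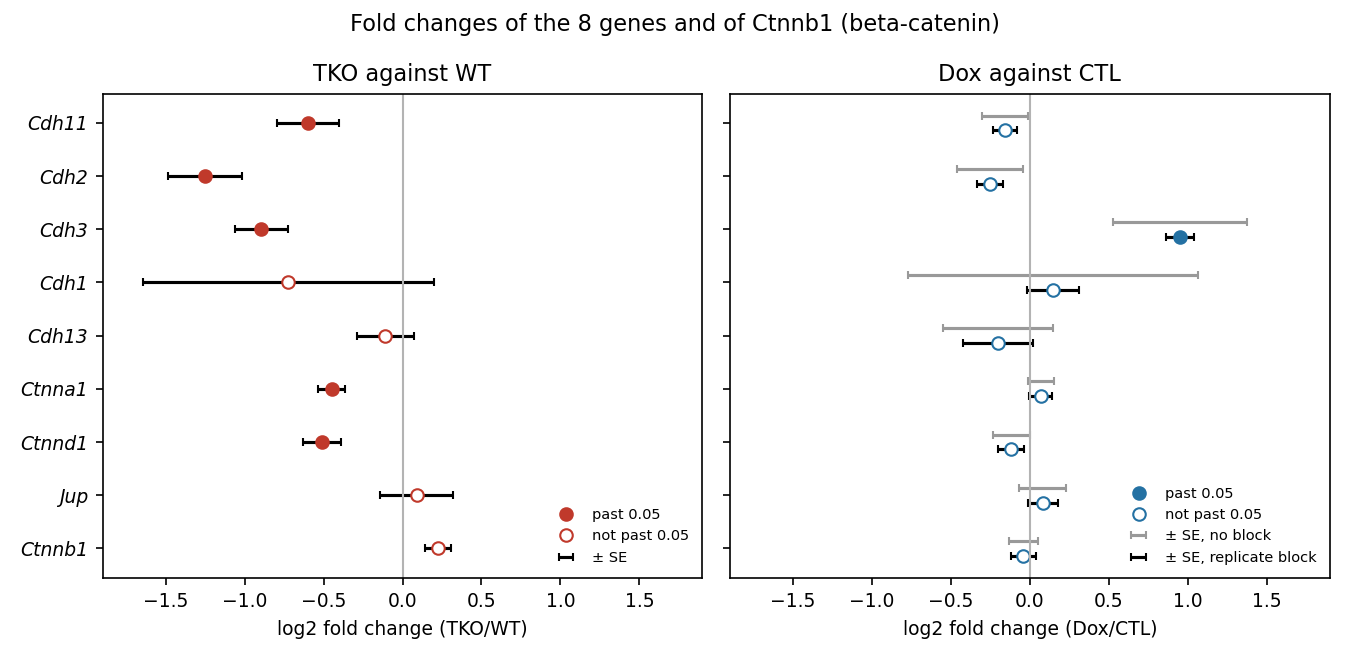
Log2 fold change (points) with its SE (bars) for the 8 genes and Ctnnb1, TKO over WT on the left and Dox over CTL on the right, n = 3 each; filled points passed an adjusted p of 0.05. Cdh3 stands at -0.90 in TKO/WT and at 0.95 in Dox/CTL, and its SE in Dox/CTL is 0.42 without and 0.089 with the replicate block.

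N-cadherin (Cdh2, chromosome 18, 16588877 to 16809246, minus strand), which joins mesenchymal and neural cells, had the largest difference in TKO. It had 117.2, 61.6 and 92.2 in TKO, against 240.6, 216.3 and 176.5 in WT. The highest TKO library was below the lowest WT library. The log2 fold change was -1.25 ± 0.24, or 0.42-fold, past the threshold, and lay between -1.46 and -1.0 under the 15 alternatives run. In Dox it had 65.4, 90.9 and 111.3, against 88.1, 102.9 and 124.2 in CTL, with a log2 fold change of -0.25 ± 0.21 that did not pass. Dox was the lower of each pair, by 0.42, 0.18 and 0.16 on the log2 scale. Its 3' UTR of 1270 bases holds 1 match of the 7mer-A1 kind, in exon 16.

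Within libraries, the ratio of Cdh2 to Cdh11 signal was 0.16, 0.13 and 0.12 in TKO, against 0.23, 0.22 and 0.20 in WT. It did not overlap between these groups, so N-cadherin was low in TKO also relative to cadherin-11 in the same library. A common scale factor cancels in this ratio, but a bias that differs between genes does not. The part of depth in it was not tested. In Dox the ratio was 0.096, 0.17 and 0.19, against 0.11, 0.17 and 0.20 in CTL, and it overlapped. Per kb of transcript, Cdh11 made up 80.1% to 81.5% of the 5 cadherins in TKO, against 74.7% to 75.0% in WT. Cdh2 made up 11.6% to 14.5% in TKO, against 17.2% to 19.8% in WT. Cdh3 made up 5.0%, 5.0% and 10.9% in Dox, against 2.3%, 2.4% and 5.0% in CTL, higher in Dox for each number.

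**Figure D3:**
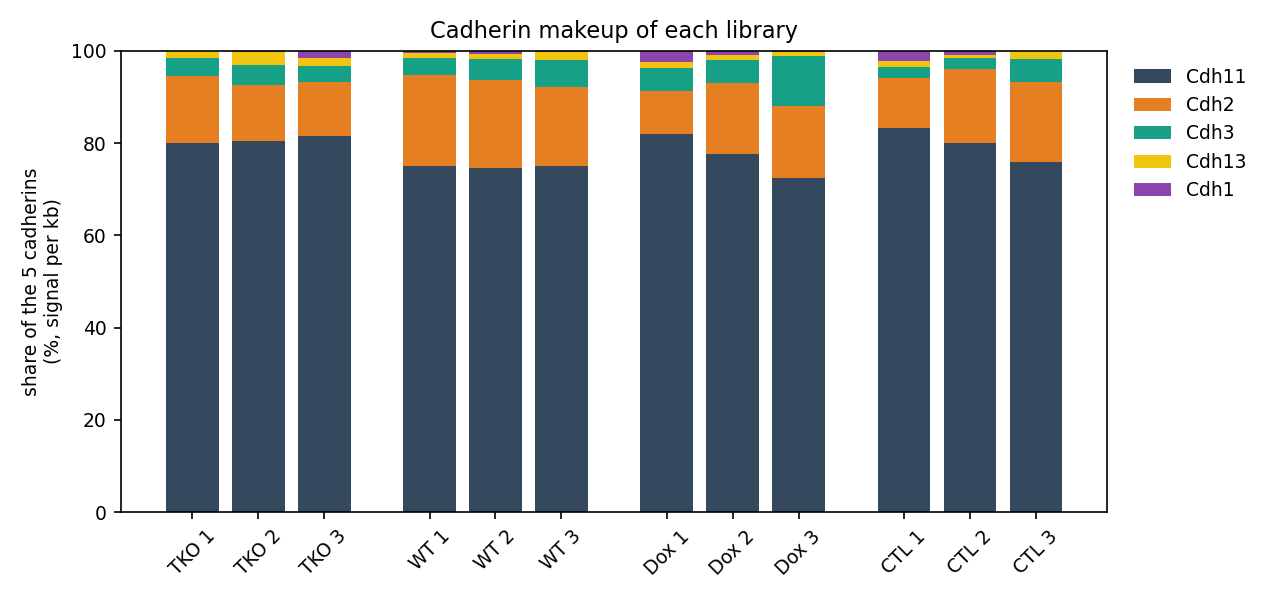
Share of each of the 5 cadherins in their summed signal per kb (%, bars add to 100), for each library. Cdh11 takes 72.3% to 83.3% everywhere; the Cdh2 share is 11.6% to 14.5% in TKO and 17.2% to 19.8% in WT, and the Cdh3 share is higher in Dox than in CTL for each replicate number.

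E-cadherin (Cdh1, chromosome 8, 106603351 to 106670246, plus strand) lies 46.1 kb downstream of Cdh3 on the same strand, and is the cadherin that defines epithelial junctions. It had 0.13, 1.54 and 12.1 in TKO, against 6.07, 8.30 and 1.58 in WT. In Dox it had 15.3, 4.64 and 1.89, against 17.1, 4.86 and 0.85 in CTL. The libraries of every group were spread over a wide range, TKO 1 resting on 10 reads, and both pairs of groups overlapped. The log2 fold changes were -0.72 ± 0.92 in TKO and 0.15 ± 0.92 in Dox, and neither passed. Without TKO 1 the TKO value was 0.061.

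Cdh1 was high in the libraries in which keratins were high. The 2 genes most like Cdh1 among 9934, over the 12 libraries with each pair of groups centred on its own mean, were the simple-epithelial keratins Krt7 (Pearson r 0.99, Spearman rho 0.96) and Krt8 (r 0.97, rho 0.96). Krt7 had 0.39, 2.30 and 16.4 in TKO against 7.91, 10.5 and 2.14 in WT, and 49.2, 14.5 and 4.71 in Dox against 38.0, 10.6 and 2.17 in CTL. Of 13 epithelial markers 10 were listed in each comparison. Krt5 and Grhl2 were listed in neither, Esrp1 not in the TKO and WT libraries and Cldn7 not in the Dox and CTL libraries. The sum of the 10 was 273.6, 75.4 and 36.6 in Dox against 245.9, 60.2 and 26.2 in CTL. The part of epithelial cells in these differences was not tested, and in such mixed cells fewer cells of a type and less RNA per cell cannot be told apart. The epithelial sum was higher in Dox than in CTL for each replicate number, as Cdh3 was. So were the sums of mesenchymal progenitor, endothelial, Schwann cell and skeletal muscle markers, but not those of mesothelial, mural, adipocyte and macrophage markers. For skeletal muscle the sum was 185.3, 178.9 and 187.7 in Dox against 159.3, 106.7 and 163.0 in CTL, with no overlap. Des makes up most of that sum (160.8, 157.2 and 185.3 in Dox against 128.9, 89.65 and 161.9 in CTL). Each listed muscle marker taken singly overlapped between the groups. Des and Myod1 were higher in Dox for each number, while Myog and Cdh15 were lower in Dox 1 than in CTL 1. Across the numbers, Cdh3 was highest in Dox 3 and in CTL 3, where the epithelial sum was lowest in its group. The part of epithelial or other cells in the Cdh3 difference was not tested.

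**Figure D4:**
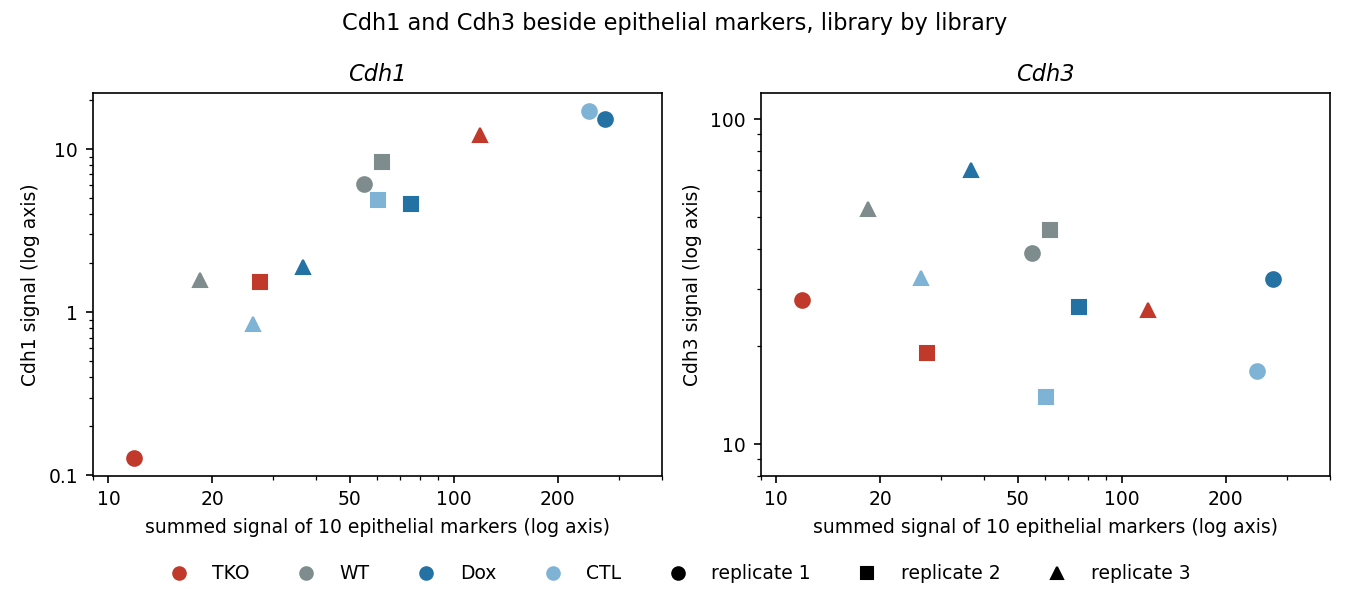
Signal of Cdh1 (left) and Cdh3 (right) against the summed signal of 10 epithelial markers in the same library, both axes log; colours are groups and symbols replicate numbers. Cdh1 lies between 0.13, in the library with the lowest marker sum, and 17.1. Cdh3 is at 70.0 in Dox 3, whose marker sum is 36.6, and at 32.4 in CTL 3, whose sum is 26.2.

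T-cadherin (Cdh13, chromosome 8, 118283733 to 119324921, plus strand) had 10.4, 11.2 and 10.1 in TKO, against 10.7, 9.05 and 15.4 in WT. The Dox libraries had 7.60, 5.05 and 4.23, against 7.94, 3.46 and 9.39 in CTL. The groups overlapped in both comparisons, and the log2 fold changes of -0.11 ± 0.18 in TKO and -0.20 ± 0.35 in Dox did not pass. Between 74 and 199 reads stood behind each Dox and CTL value.

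Alpha-catenin (Ctnna1, chromosome 18, 35118859 to 35254779, plus strand) is the link to actin. It had 379.3, 325.4 and 375.9 in TKO, against 518.1, 485.9 and 470.5 in WT, with no overlap. The log2 fold change was -0.45 ± 0.085, or 0.73-fold, past the threshold. Dox libraries held 369.6, 388.3 and 415.1, against 369.7, 360.8 and 387.1 in CTL, a log2 fold change of 0.069 ± 0.084 that did not pass. Its antisense neighbour Lrrtm2 overlaps its exons. Whether reads were counted by strand is not given in the sources used here.

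p120-catenin (Ctnnd1, chromosome 2, 84600071 to 84650765, minus strand), which protects surface cadherins from uptake, had 43.7, 31.9 and 38.4 in TKO, against 54.2, 57.9 and 50.5 in WT. The groups did not overlap, and the log2 fold change of -0.51 ± 0.12, or 0.70-fold, was past the threshold. It did not pass without WT 2 (-0.46) or with the replicate block and the length and GC trend removed (-0.34). In Dox it had 44.9, 36.2 and 46.7, against 48.1, 42.9 and 47.4 in CTL, and the log2 fold change of -0.12 ± 0.12 did not pass. Its level is uncertain, because 69.0% of its 75-base stretches also lie in transcripts of other annotated genes. The same-strand gene Gm28635 overlaps its exons, and reads shared by such genes can be left out in counting.

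Plakoglobin (Jup, chromosome 11, 100368958 to 100397763, minus strand), the catenin of desmosomes that can also stand in for beta-catenin at adherens junctions, had 42.4, 63.4 and 62.9 in TKO, against 38.6, 56.2 and 64.6 in WT. The Dox libraries had 60.6, 48.1 and 50.3, against 53.6, 40.8 and 56.2 in CTL. The groups overlapped in both, with log2 fold changes of 0.089 ± 0.23 in TKO and 0.082 ± 0.15 in Dox that did not pass.

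Beta-catenin (Ctnnb1), which also carries Wnt signals, is not among the 8 and was the partner fixed for comparison. It had 834.6, 807.3 and 936.8 in TKO, against 757.7, 709.2 and 736.2 in WT, a log2 fold change of 0.22 ± 0.083 whose adjusted p of 0.064 in limma did not pass. The ratio of Ctnna1 to Ctnnb1 signal was 0.45, 0.40 and 0.40 in TKO, against 0.68, 0.69 and 0.64 in WT, with no overlap. In Dox it was 0.42, 0.40 and 0.47, against 0.39, 0.40 and 0.41 in CTL. The ratio of Jup to Ctnnb1 signal lay between 0.051 and 0.079 in TKO and between 0.051 and 0.088 in WT, and overlapped.

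The order of the levels per kb had Cdh11 first and Ctnna1 next in every group. The mean signal per kb of Cdh11 was 117.0 ± 29.2 in TKO, 173.8 ± 14.3 in WT, 106.7 ± 13.2 in Dox and 119.3 ± 18.2 in CTL (SD, n = 3). That of Ctnna1 was 96.5 ± 8.1 in TKO, 131.7 ± 6.5 in WT, 104.8 ± 6.1 in Dox and 99.8 ± 3.6 in CTL, and it overlapped Cdh11 in TKO and Dox. Cdh2 came next at 18.7 ± 5.8 in TKO, 43.6 ± 6.7 in WT, 18.4 ± 4.7 in Dox and 21.7 ± 3.8 in CTL. Jup followed Cdh2 at 17.6 ± 3.7 in TKO and 16.6 ± 4.1 in WT, so these neighbours overlapped in TKO and not in WT. Cdh3 and Ctnnd1 overlapped in all 4 groups, in either order. Cdh13 and Cdh1 were the lowest, at 2.79 and 1.04 in TKO and 3.10 and 1.2 in WT per kb. Among these 5 cadherins and the listed genes of the list of other cadherins, which holds no clustered protocadherin, 31 in TKO and WT and 29 in Dox and CTL, Cdh11 ranked first per kb in every group. Cdh2 ranked 5 in TKO and 3 in WT, and 5 in Dox and 4 in CTL.

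The same rule of likeness named Apbb2 (r 0.99, rho 0.99) and Pcdhgb5 (r 0.98, rho 0.97) for Cdh2. Pcdhgb5 is a gamma-protocadherin whose last exons are shared by its cluster, so its count is uncertain. It named Zfp451 (r 0.99, rho 0.94) and Smurf2 (r 0.98, rho 0.93) for Cdh11. For Cdh3 it named Prkar2a (r 0.94, rho 0.94) and Lrrfip1 (r 0.92, rho 0.94), and for Cdh13 Lmcd1 (r 0.86, rho 0.85) and Pkm (r 0.82, rho 0.74). For Ctnna1 it named Luzp1 (r 0.99, rho 0.96) and Mamld1 (r 0.98, rho 0.98), for Ctnnd1 Shoc2 (r 0.97, rho 0.97) and Ccny (r 0.97, rho 0.93), and for Jup Abca2 (r 0.89, rho 0.83) and Slc27a1 (r 0.83, rho 0.84). These are the highest of 9934 values each, over the same 12 libraries, and are given as a description. Centring was on the mean of each pair of groups, so a difference between TKO and WT stays in the values and can raise r. In that comparison 45.8% of all genes passed.

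Other genes of the junction were taken from 7 lists of 120 genes, of which 87 were tested in TKO against WT. In TKO 14 of the 87 rose and 22 fell at an adjusted p of 0.05 in limma, 41.4% in all beside 45.8% of all genes. Their median log2 fold change was -0.12. Under library-size scaling the balance turned, to 20 higher and 13 lower. In Dox against CTL 0 of 85 passed in limma without the block, and with it 1 rose and 1 fell, 2.35% beside 2.10% of all genes, with a median of 0.043. The adjusted p-values that follow are from limma over all genes tested.

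Of 17 other cadherins tested, 4 fell in TKO and 0 rose, with a median log2 fold change of -0.32. Over all genes, 22.7% fell and 23.2% rose. Pcdh9, a protocadherin known from the nervous system, fell most clearly, to 5.30, 4.14 and 6.11 in TKO, against 12.8, 12.4 and 12.97 in WT (log2 fold change -1.16 ± 0.13, adjusted p = 0.00089). Pcdh7 fell by 0.48 (adjusted p = 0.034), Pcdh18 by 0.52 (adjusted p = 0.046) and the giant cadherin Fat4 by 0.86 (adjusted p = 0.045). The calls of these 3 ended under library-size scaling and without any one WT library.

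Of 8 other catenins and armadillo relatives, 1 fell and 2 rose in TKO, with a median of 0.25. Over all genes, 22.7% fell and 23.2% rose. Pkp4, a relative of p120-catenin found at cell junctions, fell to 33.1, 29.7 and 34.6 in TKO, against 48.2, 49.9 and 48.5 in WT (-0.58 ± 0.074, adjusted p = 0.0014). Ctnnbip1, an inhibitor that keeps beta-catenin from its DNA-binding partner, rose by 0.37 (adjusted p = 0.0094), and the alpha-catenin relative Ctnnal1 by 0.35 (adjusted p = 0.043). The call of Ctnnbip1 ended with the length and GC trend removed, and that of Ctnnal1 under median centring and without any one library. In Dox with the block, Pkp2, a plakophilin of desmosomes, rose to 22.1, 19.8 and 25.6, against 14.8, 15.9 and 17.7 in CTL (0.45 ± 0.096, adjusted p = 0.049). Without the block its adjusted p was 0.68, and without pair 1 the call ended (adjusted p = 0.39).

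Of 17 actin linkers of adherens junctions, 5 rose and 5 fell in TKO, with a median of -0.28. Over all genes, 23.2% rose and 22.7% fell. Lima1 (EPLIN), which bundles actin and binds alpha-catenin, fell to 451.9, 362.1 and 424.1 in TKO, against 798.5, 738.7 and 637.7 in WT (-0.81 ± 0.12, adjusted p = 0.0023). The scaffold Tjp1 (ZO-1) fell by 0.76 (adjusted p = 0.0025) and the focal adhesion and junction protein Zyx by 0.75 (adjusted p = 0.0024). Wtip, a LIM-domain protein of the Ajuba family, rose to 20.9, 26.8 and 23.9 in TKO, against 7.82, 9.05 and 10.9 in WT (1.28 ± 0.14, adjusted p = 0.00085). Each of these 4 passed under all 15 alternatives run.

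Of 8 nectins and related adhesion molecules, 2 rose and 1 fell in TKO, with a median of 0.0076. Over all genes, 23.2% rose and 22.7% fell. Nectin2 rose by 0.45 (adjusted p = 0.011) and Cadm4 by 0.97 (adjusted p = 0.022), while the nectin relative Pvr fell by 0.43 (adjusted p = 0.034). The call of Cadm4 ended with the trend removed and without TKO 1, TKO 3, WT 1 or WT 3. The call of Pvr ended under library-size scaling and without any one WT library.

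Of 10 desmosome genes, 3 passed the filter on low values in TKO against WT and 2 in the Dox comparison, and Dsc1 and Dsg1a were listed in neither. Perp, a tetraspan membrane protein needed for desmosomes in skin, rose to 12.9, 15.8 and 17.1 in TKO, against 3.37, 6.35 and 6.48 in WT (1.38 ± 0.23, adjusted p = 0.0036). In Dox it had 2.01, 2.28 and 2.13, against 4.13, 3.22 and 7.78 in CTL, a log2 fold change of -0.87 that did not pass (adjusted p = 0.053 with the block and 0.70 without). The desmosomal plaque gene Dsp did not pass either (-0.22 ± 0.80 in TKO, adjusted p = 0.84).

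**Figure D5:**
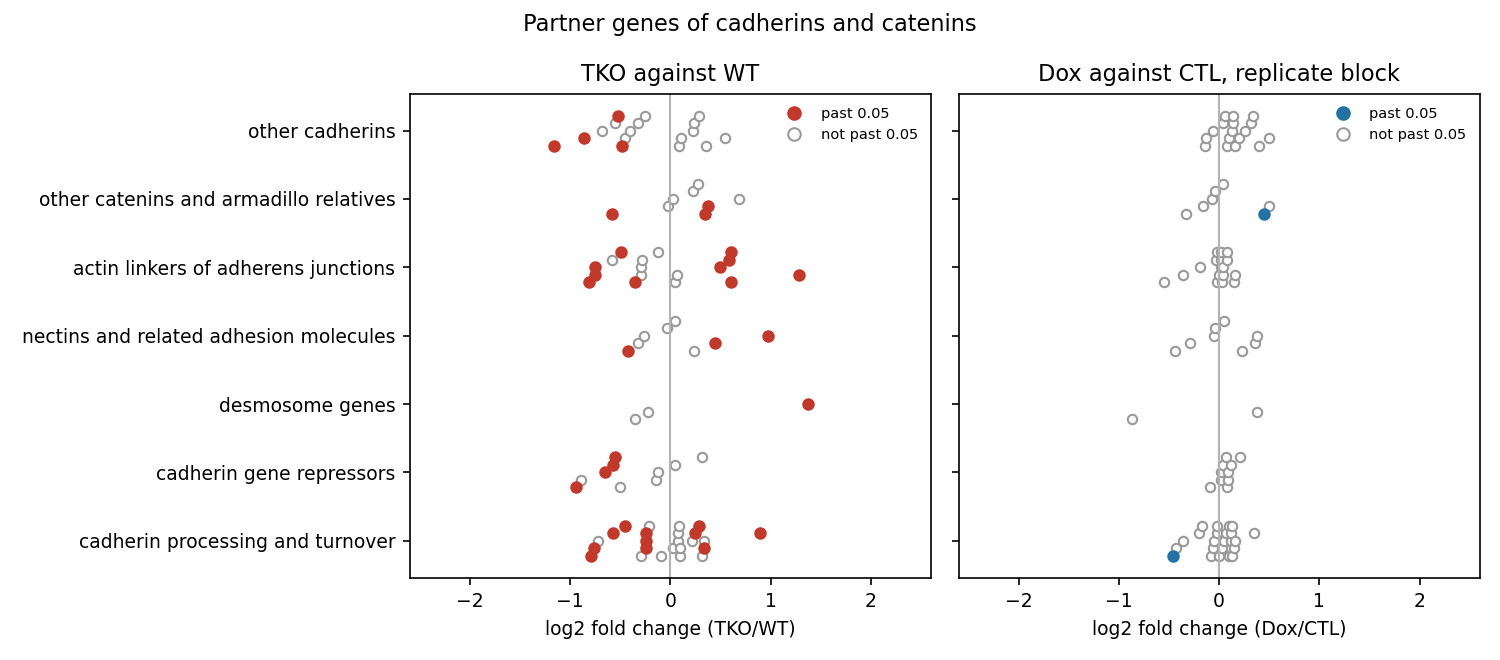
Log2 fold change of each tested partner gene by list, TKO over WT on the left and Dox over CTL with the replicate block on the right; filled points passed an adjusted p of 0.05 in limma. On the left 14 rose and 22 fell of 87 (41.4%, beside 45.8% of all genes), and on the right 1 rose and 1 fell of 85.

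Of 10 cadherin gene repressors tested, factors best known for silencing E-cadherin when epithelial cells turn mesenchymal, 4 fell in TKO and 0 rose, with a median of -0.53, beside 22.7% of all genes that fell and 23.2% that rose. Zeb2 fell to 181.0, 134.5 and 172.2 in TKO, against 330.5, 311.8 and 290.4 in WT (-0.94 ± 0.12, adjusted p = 0.0015). Zeb1 fell by 0.56 (adjusted p = 0.0031), Snai2 by 0.57 (adjusted p = 0.0062) and Snai1 by 0.66 (adjusted p = 0.039). The call of Snai1 ended under library-size scaling, in edgeR (-0.61), without TKO 2 or 3 and without any one WT library. In Dox none of the 10 passed, and Zeb2 had 223.2, 182.5 and 176.4, against 224.1, 186.0 and 164.3 in CTL.

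Of 24 genes of cadherin processing and turnover, 4 rose and 7 fell in TKO, with a median of 0.051. Over all genes, 23.2% rose and 22.7% fell. Cbll1 (Hakai), the ubiquitin ligase that marks E-cadherin for uptake, fell to 18.4, 16.3 and 19.1 in TKO, against 32.6, 33.6 and 29.3 in WT (-0.80 ± 0.089, adjusted p = 0.00095). The kinase Fer, which binds p120-catenin, fell by 0.57 (adjusted p = 0.00099) and the phosphatase Ptprm, which binds cadherins, by 0.76 (adjusted p = 0.0065). The proprotein convertase Pcsk5 rose by 0.89 (adjusted p = 0.0056). Adam10, the protease that sheds the outer part of N- and E-cadherin, fell in Dox with the block, to 122.3, 116.9 and 131.1, against 154.7, 167.3 and 187.9 in CTL (-0.46 ± 0.074, adjusted p = 0.023). All Dox libraries lay below all CTL libraries. Without the block its adjusted p was 0.44, and without pair 1 the call ended (adjusted p = 0.056). In TKO Adam10 had 214.5, 160.3 and 202.1, against 287.2, 263.3 and 235.8 in WT, and it fell there too (-0.45 ± 0.13, adjusted p = 0.028).

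TKO 2 was the lowest TKO library for Cdh2, Cdh3, Cdh11, Ctnna1 and Ctnnd1, and stood apart in its macrophage markers, 298.5 beside 58.9 and 53.2. Without TKO 2 all 5 genes still passed, at -1.0 for Cdh2, -0.74 for Cdh3, -0.37 for Cdh11, -0.38 for Ctnna1 and -0.39 for Ctnnd1. The part of macrophages in the lower signal of these genes was not tested. The summed signal of 6 mural and smooth muscle markers was 3222, 2065 and 2584 in TKO, against 3542, 3668 and 3202 in WT. Acta2 makes up most of that sum (log2 fold change -0.46), and 0 of the 6 markers passed. Myh11 (-0.77) and Cnn1 (-0.17) were also lower in TKO, while Mcam (0.91), Cspg4 (0.045) and Rgs5 (0.0020) were not. The part of mural cells in the lower cadherin signal was not tested. All 6 mural and all 10 macrophage markers were listed in both comparisons. Of the other lists, the sums in TKO and in WT overlapped for 8 mesothelial, 8 endothelial, 6 adipocyte, 7 Schwann cell and 4 skeletal muscle markers listed, with Lep, Myf5 and Pax7 not listed. Lpl makes up most of the adipocyte sum, and all the other listed fat-cell markers were higher in TKO 1 and 2 than in TKO 3 and the WT libraries. Adipoq (adiponectin) had 15.97, 16.3 and 0.79 in TKO against 1.18, 1.85 and 2.80 in WT, Plin1 had 14.5, 13.9 and 0.99 against 1.29, 1.78 and 2.397, and Fabp4 had 83.5, 80.7 and 27.1 against 25.5, 25.997 and 25.6. Cfd had 12.6, 19.3 and 0.39 in TKO against 0.42, 0.88 and 2.74 in WT. Cidec, at the lowest level, had 0.85, 0.82 and 0.033 in TKO against 0.141, 0.1 and 0.145 in WT. The median log2 fold change of the 5 adipocyte markers tested was 1.47, and 0 of them passed. Without TKO 1 the genes Cdh2, Cdh3, Cdh11, Ctnna1 and Ctnnd1 also passed. Leaving out TKO 1 or TKO 2 keeps the other in, so these fits cannot bear on fat cells. The part of fat cells in the differences was not tested.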

How the data were processed

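The members and all gene lists were chosen with earlier results of these data known. Per the labels' protocols, libraries were made with a stranded messenger RNA kit and read as 75-base single reads. Per the submitters' processing notes, TopHat2 2.0.12, GRCm38 (mm10), featureCounts 1.4.6, edgeR 3.8.6 and StringTie 1.2.2 were used. The deposited signal is a read count scaled to a common library size, and dividing by the value of 1 read gave whole reads, within 0.1 read, for 100% of values. The log2 fold changes, log2 levels, p-values and likelihood-ratio score deposited by the authors were not used. Genes that reached a signal of 1 in 3 or more of 6 libraries went into limma 3.58.1 (trend, R 4.3.3) as log2(signal + 1), a scale that understates the fold changes of low genes. Benjamini-Hochberg adjustment ran over every gene that entered, at a threshold of 0.05, and the SE is limma's. A gene is called higher or lower when it passes that threshold. As alternatives, edgeR 4.0.16 and DESeq2 1.42.0 were run on the recovered reads. The procedure was tested on simulated data. Lengths, positions and 3' UTRs are from 1 transcript per gene of GENCODE vM21, in which 99.8% and 99.9% of the gene IDs were found.

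Deviations from the group mean of same-numbered Dox and CTL libraries correlated at 0.86, 0.58 and 0.74 across genes, so the numbers were taken to pair them, from the data and not the labels; the column names of Dox 2 and Dox 3 share 1 sequencing suffix. All per-sample columns matched a sample. Named were the 8 members, up to 4 called genes with the smallest p in each list and comparison (in Dox from the fit with the block, a choice made after the values were seen), Ctnnb1, and the 2 genes most like each member among those with a mean signal of at least 5 in both tables, leaving out Gm and Rik symbols.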

Additional observations from a re-analysis of the deposited data

How the results depend on the processing

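With depths of 19301969 to 83461531 reads, counting error limits chiefly Cdh1 (10 reads in TKO 1) and Cdh13 (74 reads at the lowest). In TKO against WT the 8 genes gave 0 calls higher and 3 to 5 lower under every alternative run, and 3 with the replicate block and the length and GC trend removed. Leaving out 1 library gave 3 to 5. For partner genes called lower, library-size scaling gave 13 (with 20 called higher) and leaving out 1 library 12 to 29. The replicate block alone left 5 of the 8 lower and called 5101 genes of all. Same-numbered TKO and WT libraries correlated at 0.45, -0.14 and -0.29, so they share only a number, and only TKO 1 and WT 1 correlated best with the library of their own number. In Dox against CTL, DESeq2 called 99 genes, 1 of them a partner gene, lower. The replicate block called 265 genes, 821 with the trend removed, and 129, 1405 and 584 without pair 1, 2 and 3, the last alternative having been added after seeing the data. Members called higher were 1 in each of these 5 fits, and 1 was called lower without pair 2. Partner genes called higher with the block were 1, then 3 with the trend removed, 8 without pair 2 and 3 without pair 3, and those called lower were 1, then 4 with the trend removed and 1, 12 and 2 without pair 1, 2 and 3. Sign changes touched only uncalled members. Jup in TKO was -0.081 with the trend removed, with or without the block, and -0.12 to 0.28 with 1 library left out. Cdh13 in TKO was 0.0071 under library-size scaling and -0.26 to 0.091 with 1 library left out, and Cdh1 in TKO -1.71 to 0.061. In Dox, Cdh1 was -0.080 in edgeR, -0.063 in DESeq2, -0.10 with the block without pair 3 and -0.68 to 0.97 with 1 library left out. Cdh13 in Dox was 0.19 with the block without pair 3 and -0.57 to 0.038 with 1 library left out, and Jup -0.057 to 0.17. The causes were not tested.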
